A study of Mus musculus with 26 samples.

Results

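Expression of 10 genes of serine, one-carbon and asparagine synthesis was followed in mouse blood-forming cells: Phgdh, Psat1, Psph, Shmt1, Shmt2, Mthfd1, Mthfd2, Mthfd1l, Aldh1l2 and Asns. Each gene was taken from probe sets (groups of array probes read as 1 value) that the array's annotation gives to 1 symbol only, and where several existed the brightest on average was kept. Every one of the 10 genes had exactly 1 such probe set, and together they are 10 of the 19937 genes that could be tested. The rule names the genes by pathway, and they were chosen with earlier results of these data known. Counts of them set beside shares of all genes are therefore a description and no test of the set.

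The series, whose title names the leukaemia fusion MLL-AF9, profiled 26 RNA samples of C57BL/6 mice on Affymetrix arrays in 8 groups. Long-term hematopoietic stem cells (LT-HSC, n = 4) and granulocyte macrophage progenitors (GMP, n = 4) came by sorting of wild-type bone marrow, with no treatment label. Lines immortalized in vitro from LT-HSC were collected from liquid medium at 48 h, 2 arrays with doxycycline (dox) and 3 without, and at 72 h, 3 arrays of each kind. Lines immortalized in vitro from GMP gave 4 arrays with dox and 3 lacking it, all at 48 h. The lines are named B6-1, B6-2 and B6-3 for LT-HSC, and B6-1, B6-2, B6-3 and F6-6 for GMP. B6-1 of LT-HSC has no array with dox at 48 h, and B6-1 of GMP has none without dox. Both the dox and the no-dox groups are immortalized, so neither stands for normal cells. Every array with dox is of an immortalized line, so the agent itself and anything it controls cannot be told apart. Whether the hours count from adding or from withdrawing dox, which transgene dox controls and through which promoter, and whether a line is 1 clone were all points not given in the sources used here.

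Cells make serine from a glycolytic intermediate in a short chain of reactions run by Phgdh, Psat1 and Psph. Serine then hands a carbon unit to folate, in the cytosol through Shmt1 and in mitochondria through Shmt2, and the folate enzymes Mthfd1, Mthfd2, Mthfd1l and Aldh1l2 pass this unit on as formate, as a building block of purines and thymidylate, or to carbon dioxide. Asparagine synthetase, Asns, makes asparagine from aspartate with nitrogen from glutamine, and in leukaemia it is known for setting the need for asparagine from outside the cell, on which asparaginase treatment acts. In human and mouse cells Phgdh, Psat1, Shmt2, Mthfd2 and Asns are known targets of ATF4, a transcription factor whose translation rises when amino acids run short or the endoplasmic reticulum is stressed.

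RefSeq promoter windows of build GRCm38.p6 (300 bases each) were at hand for 9 of the 10 genes. They were searched on both strands for TGATGNAA, the core of the element bound by ATF4 with its C/EBP partners, for GTTACA, which forms another element of the ASNS promoter in human cells, and for CACGTG, the E-box read by MYC. None of these motifs overlaps another. The Asns window held TGATGAAA, whose first base lies 23 bases before the start site, and GTTACA, whose first base lies 3 bases before it, with 12 bases between them. Of 32851 RefSeq windows of the same length, 3.97% held TGATGNAA, 8.25% held GTTACA, 0.694% held both and 7.15% held CACGTG. None of these motifs was found in the windows of the other 8 genes with one. The start site of the Mthfd2 window lay 8407 bases from the annotated 5′ end of its gene, and that of Mthfd1 826 bases. The annotated 5′ ends of these genes were therefore not searched. The Asns stretch is printed because it carries both motifs (in capitals), and those of Psat1 and Shmt2 because these genes, described below, differed widely between groups while their windows hold neither motif. All stretches run 5′ to 3′ from 150 bases before the start site and lie on the minus strand.
Asns, chr6:7693190-7693359: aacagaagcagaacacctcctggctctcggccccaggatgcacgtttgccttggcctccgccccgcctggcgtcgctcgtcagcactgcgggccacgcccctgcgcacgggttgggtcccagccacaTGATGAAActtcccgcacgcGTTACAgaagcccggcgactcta
Psat1, chr19:15925040-15925209: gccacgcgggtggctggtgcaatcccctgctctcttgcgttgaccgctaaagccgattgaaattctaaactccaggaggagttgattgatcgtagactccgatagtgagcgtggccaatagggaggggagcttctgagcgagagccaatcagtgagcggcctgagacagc
Shmt2, chr10:127522425-127522594: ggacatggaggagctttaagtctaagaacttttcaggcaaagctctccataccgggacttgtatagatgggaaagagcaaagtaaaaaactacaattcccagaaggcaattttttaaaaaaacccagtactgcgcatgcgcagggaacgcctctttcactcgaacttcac
A match is a description of the letters and no measurement of binding.

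All values below are log2 signals as deposited, where a difference of 1 is a doubling of signal. Array medians lay between 5.81 and 5.91, arrays of 1 group correlated at 0.979 to 0.991, and no array was identical to another. Signals of different genes come from different probes and are not set against each other. In bulk RNA, fewer cells of a type and less RNA per cell cannot be told apart. The sorted cells carried the markers of their labels: all 7 measured HSC markers were lower and all 7 GMP and granule markers were higher in GMP than in LT-HSC. The LT-HSC-derived lines went against the name of their origin, with Elane, a granule protease gene of GMP, at 8.88 to 9.82 in their arrays against 5.36 to 6.15 in sorted LT-HSC. Mecom, an HSC transcription factor gene, lay at 7.01 to 7.88 in these lines with dox and at 4.51 to 5.80 without, against 8.95 to 9.20 in sorted LT-HSC. They are therefore called LT-HSC-derived lines for their origin only.

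Among the serine synthesis genes, Phgdh (probe set 10500529), which commits phosphoglycerate to serine, was at 6.84, 7.11, 6.87 and 7.04 in sorted LT-HSC and at 6.92, 6.76, 6.90 and 7.07 in sorted GMP. In LT-HSC-derived lines it was at 6.86, 7.05 and 6.94 without dox and 7.54 and 7.13 with dox at 48 h, and at 7.16, 6.98 and 7.28 without and 7.37, 7.06 and 7.46 with dox at 72 h. In GMP-derived lines it was at 6.82, 6.50 and 6.56 without dox and 6.88, 7.31, 7.18 and 7.47 with dox. The groups ran from GMP-derived lines without dox, the lowest, to dox-treated LT-HSC-derived lines at 48 h, and every group overlapped its neighbours in that order.

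Psat1 (probe set 10466410), the aminotransferase that adds nitrogen from glutamate, was at 7.76, 7.88, 7.80 and 7.61 in sorted LT-HSC and at 8.12, 8.21, 8.35 and 8.22 in sorted GMP. LT-HSC-derived lines had 8.84, 8.79 and 8.68 without dox and 9.03 and 8.93 with dox at 48 h, and 8.42, 8.49 and 8.49 without and 8.99, 8.84 and 8.94 with dox at 72 h. GMP-derived lines had 8.75, 8.61 and 8.77 without dox and 9.30, 9.15, 9.40 and 9.42 with dox. Sorted LT-HSC, sorted GMP and the no-dox LT-HSC-derived lines at 72 h formed the low end, each clear of its neighbours, and the GMP-derived lines with dox stood above all other groups. The 4 groups between them overlapped their neighbours.

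Psph (probe set 10534075), the phosphatase that releases serine, was at 7.38, 7.22, 7.12 and 7.01 in sorted LT-HSC and 7.18, 7.35, 7.29 and 7.26 in sorted GMP. LT-HSC-derived lines had 7.86, 7.64 and 7.69 without dox and 8.16 and 7.81 with dox at 48 h, and 7.62, 7.36 and 7.82 without and 8.16, 7.94 and 8.03 with dox at 72 h. GMP-derived lines had 8.03, 7.75 and 7.82 without dox and 8.33, 8.36, 8.19 and 8.46 with dox. Both kinds of sorted cells overlapped each other at the low end and lay below every cultured array except for 1, the B6-3 array without dox at 72 h, which lay below the highest sorted LT-HSC array. The GMP-derived lines with dox were again on top, just clear of the dox-treated LT-HSC-derived lines at 72 h.

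Of the serine hydroxymethyltransferases, the cytosolic Shmt1 (probe set 10386604) was at 7.42, 7.06, 6.79 and 7.09 in sorted LT-HSC and 7.37, 7.41, 7.59 and 7.29 in sorted GMP. Its cultured arrays ran from 6.96, in line B6-3 from LT-HSC without dox at 72 h, to 7.79, in line B6-1 from GMP with dox. All neighbours in the order of group means overlapped, and the means spanned 0.57 log2.

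The mitochondrial Shmt2 (probe set 10373202) was at 7.43, 8.05, 7.85 and 7.99 in sorted LT-HSC and 8.63, 8.76, 8.95 and 8.58 in sorted GMP. LT-HSC-derived lines had 9.23, 9.09 and 8.97 without dox and 9.33 and 9.13 with dox at 48 h, and 8.86, 8.57 and 8.81 without and 9.36, 9.09 and 9.16 with dox at 72 h. GMP-derived lines had 8.72, 8.52 and 8.82 without dox and 9.47, 9.48, 9.38 and 9.66 with dox. Sorted LT-HSC lay below all other groups and the GMP-derived lines with dox above all others. Sorted GMP, GMP-derived lines without dox and no-dox LT-HSC-derived lines at 72 h overlapped each other in the lower middle.

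Of the folate enzymes, the cytosolic Mthfd1 (probe set 10396610), which interconverts the folates that carry carbon units, had a narrow span of 0.48 log2 between group means. It ran from 7.32 ± 0.06 (SD, n = 3) in no-dox LT-HSC-derived lines at 72 h to 7.80 ± 0.05 (SD, n = 4) in GMP-derived lines with dox. The arrays of GMP-derived lines were at 7.54, 7.06 and 7.48 without dox and 7.85, 7.78, 7.75 and 7.82 with dox. Sorted cells lay near the top of the order, at 7.53 to 7.92 in LT-HSC and 7.65 to 7.84 in GMP, and overlapped the GMP-derived lines with dox.

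Mthfd2 (probe set 10545672), the mitochondrial dehydrogenase and cyclohydrolase of this pathway, was at 6.35, 6.79, 6.11 and 6.45 in sorted LT-HSC and 7.55, 7.78, 7.75 and 7.47 in sorted GMP. LT-HSC-derived lines had 9.05, 8.81 and 8.71 without dox and 9.26 and 9.05 with dox at 48 h, and 8.76, 8.76 and 8.38 without and 9.13, 9.15 and 9.0 with dox at 72 h. GMP-derived lines had 8.75, 8.72 and 8.86 without dox and 9.08, 9.25, 9.26 and 9.40 with dox. Sorted LT-HSC lay clear below sorted GMP, sorted GMP lay clear below every cultured array, and the cultured groups overlapped their neighbours.

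Mthfd1l (probe set 10367641), the mitochondrial synthetase that releases formate, was at 8.10, 8.17, 8.26 and 8.23 in sorted LT-HSC and 8.61, 8.57, 8.66 and 8.67 in sorted GMP. LT-HSC-derived lines had 8.26, 8.53 and 8.48 without dox and 8.23 and 8.25 with dox at 48 h, and 8.38, 8.35 and 8.33 without and 8.13, 8.14 and 8.29 with dox at 72 h. GMP-derived lines had 8.27, 8.23 and 8.33 without dox and 8.36, 8.60, 8.61 and 8.56 with dox. Its group means had the narrowest span of the 10 genes, 0.44 log2, with sorted GMP on top. Within each hour the dox arrays of LT-HSC-derived lines lay below the no-dox arrays, and those of GMP-derived lines lay above them.

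Aldh1l2 (probe set 10371332), the mitochondrial enzyme that oxidises the carbon unit to carbon dioxide and yields NADPH, was at 4.71, 4.90, 4.94 and 4.88 in sorted LT-HSC and 4.72, 4.75, 4.63 and 4.74 in sorted GMP. LT-HSC-derived lines had 6.04, 5.96 and 5.88 without dox and 6.71 and 6.34 with dox at 48 h, and 5.76, 6.04 and 5.35 without and 6.79, 6.62 and 6.26 with dox at 72 h. GMP-derived lines had 5.17, 5.15 and 5.23 without dox and 6.09, 6.50, 5.79 and 6.45 with dox. The arrays of sorted cells and of GMP-derived lines without dox were all below the median of all probe sets on the same array, where signal is weak. So were the no-dox arrays of B6-2 and B6-1 from LT-HSC at 72 h and the dox array of F6-6 from GMP. The sizes of differences that involve these arrays, the dox difference at 72 h included, are uncertain. GMP-derived lines without dox lay clear of the sorted cells below and of the other lines above.

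Asns (probe set 10543067) was at 8.26, 7.98, 7.92 and 8.15 in sorted LT-HSC and 7.87, 7.61, 7.35 and 7.44 in sorted GMP. LT-HSC-derived lines had 10.16, 10.15 and 9.97 without dox and 10.57 and 10.46 with dox at 48 h, and 9.78, 9.78 and 9.82 without and 10.52, 10.61 and 10.50 with dox at 72 h. GMP-derived lines had 10.09, 10.04 and 10.16 without dox and 10.50, 10.72, 10.62 and 10.83 with dox. Its group means had the widest span of the 10 genes, 3.10 log2, from 7.57 ± 0.23 (SD, n = 4) in sorted GMP to 10.67 ± 0.14 (SD, n = 4) in the lines derived from them with dox. The order went from sorted GMP through sorted LT-HSC and all lines without dox to all lines with dox, and no array with dox overlapped one without.

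**Figure D1:**
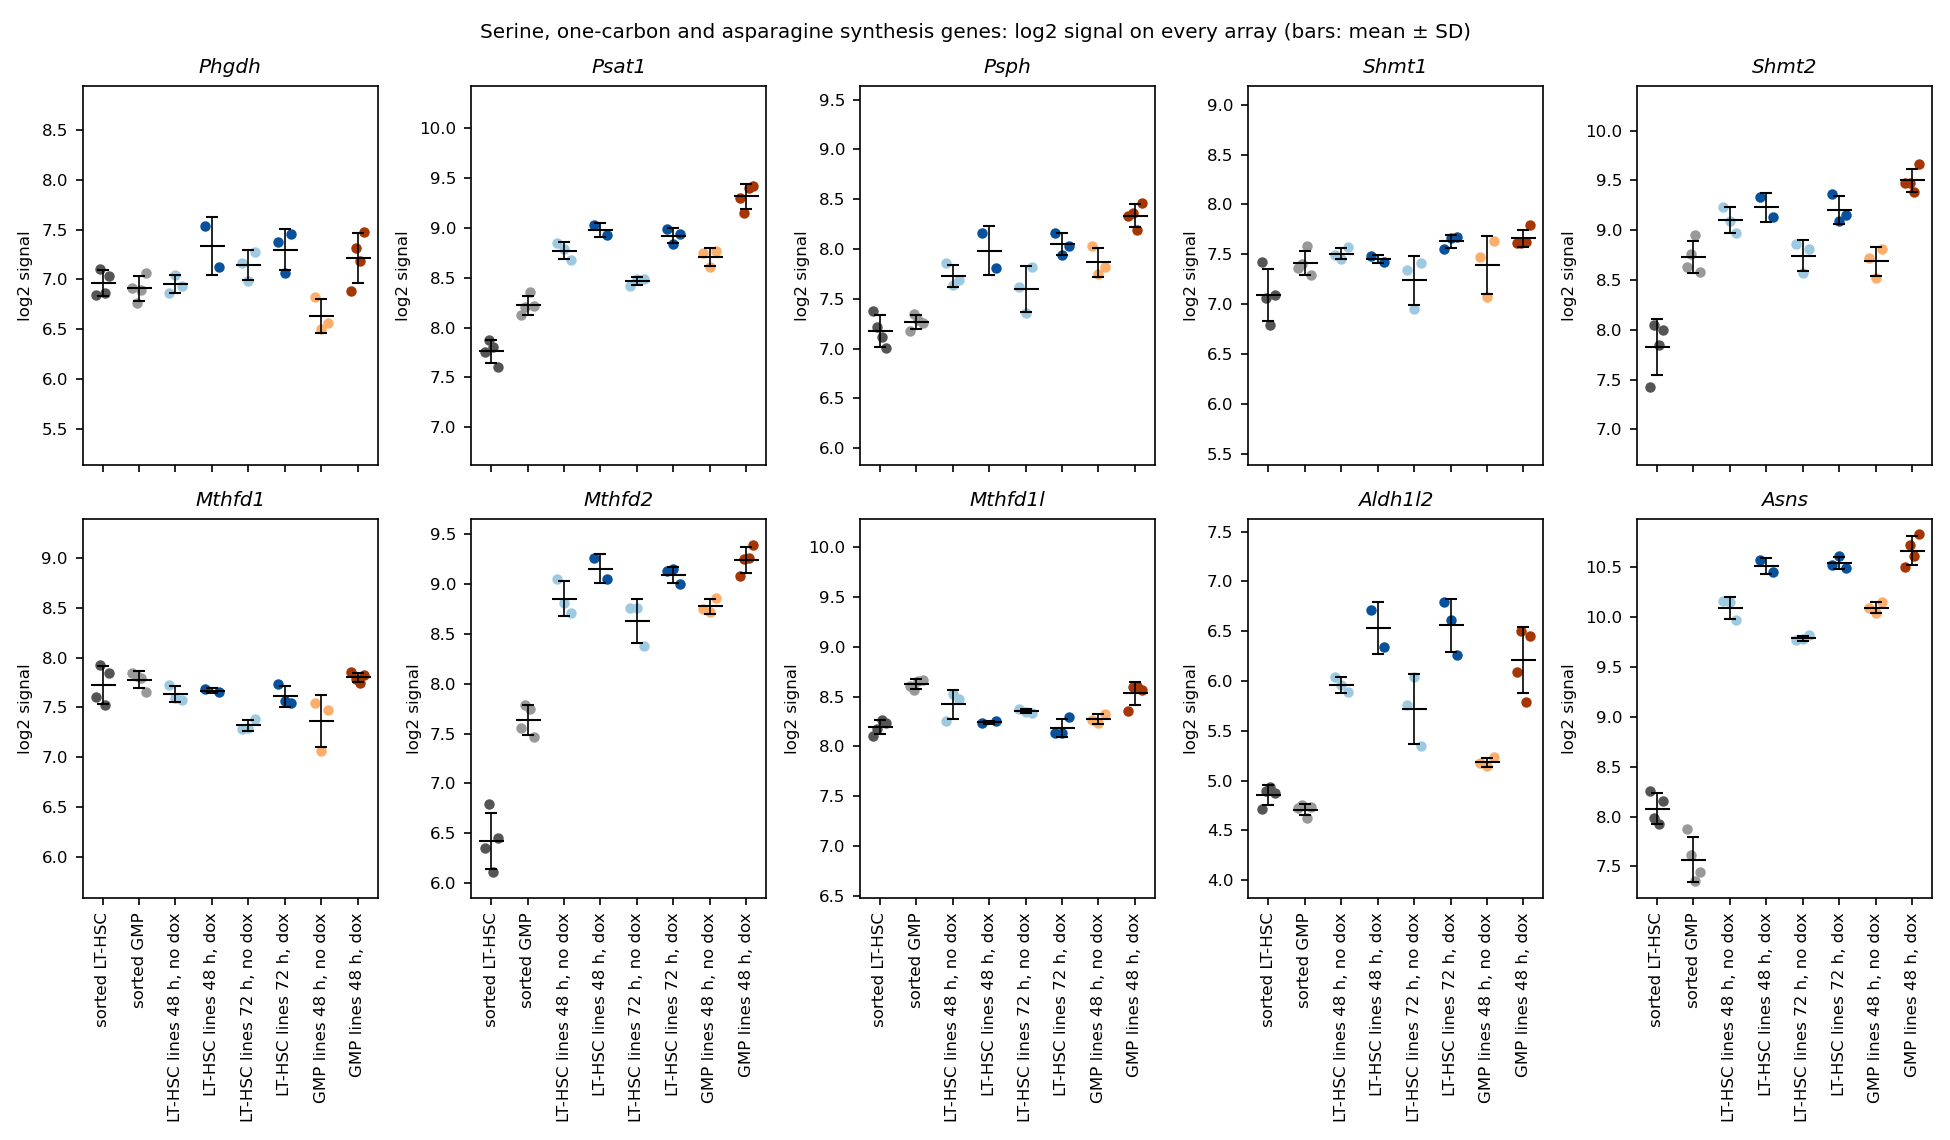
Log2 signal (vertical axis, each panel with the same length of scale) of the 10 genes on every array, by group (horizontal axis). Points are arrays, long bars group means and short bars the SD. Asns and Mthfd2 have the widest spans of group means, 3.10 and 2.82 log2, and Mthfd1l the narrowest, 0.44.

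The comparison of sorted GMP with sorted LT-HSC asks how these genes differ between a stem cell and a committed progenitor in normal marrow. The mitochondrial folate genes Mthfd2 and Shmt2 were higher in GMP by 1.21 ± 0.12 log2 (SE of the fit, a 2.32-fold signal) and 0.90 ± 0.12 log2, with adjusted p of 9.11e-09 and 8.62e-07. Psat1 was higher by 0.46 ± 0.07 and Mthfd1l by 0.43 ± 0.07 log2, while Asns was lower, at -0.51 ± 0.09 log2 (adjusted p 0.000113). Arrays of both groups did not overlap for any of these 5 genes, and the share of all genes without overlap was not counted. Shmt1 was also called, at 0.32 ± 0.12 log2 and adjusted p 0.0397, but its arrays overlapped and the call was lost in 8 of 14 alternatives. Leaving out LT-HSC replicate 2, 3 or 4 gave an adjusted p of 0.0789, 0.178 and 0.0693, and leaving out GMP replicate 1, 2 or 3 gave 0.0556, 0.0686 and 0.136. In all, 5 of the 10 genes were called higher, against 16.8% of all genes, and 1 lower, against 15.3%. Phgdh, Psph, Mthfd1 and Aldh1l2 did not pass, with 95% intervals of -0.30 to 0.19, -0.12 to 0.29, -0.14 to 0.24 and -0.44 to 0.15 log2. The labels call the sorted replicates biological and name no animal for them, so the p-values cover the spread among these samples alone.

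Proliferation genes moved with this contrast: 18 of 19 measured were higher in GMP and none was lower, with Rrm2, a ribonucleotide reductase subunit, at 1.52 ± 0.12 log2. Their mean level was 8.49 to 8.89 in sorted LT-HSC and 9.48 to 9.55 in sorted GMP, and their part in the result was not tested. Among 30 measured other genes of serine, glycine, folate and asparagine metabolism, 10 were higher and 5 lower. Glul, glutamine synthetase, was lower by the largest amount, at -1.26 ± 0.08 log2, and Aldh1l1, the cytosolic relative of Aldh1l2, was at -0.72 ± 0.10. Got2, the mitochondrial aspartate aminotransferase, was higher at 0.75 ± 0.07, and Asnsd1, a gene of an asparagine synthetase domain, at 0.74 ± 0.09.

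Cultured lines were next set against the sorted cells of their origin. Asns and Mthfd2 were the genes with the largest increases: in dox-treated LT-HSC-derived lines at 48 h Mthfd2 was higher than in sorted LT-HSC by 2.73 ± 0.14 log2 (6.63-fold, adjusted p 3.30e-13) and Asns by 2.43 ± 0.12 (5.41-fold, adjusted p 4.62e-14). In GMP-derived lines with dox Asns was higher than in sorted GMP by 3.10 ± 0.09 log2 (8.58-fold, adjusted p 1.01e-16) and Mthfd2 by 1.61 ± 0.12 log2. No cultured array of either gene overlapped an array of sorted cells.

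Psat1, Psph, Shmt2 and Aldh1l2 completed the set called in the lines with dox. Against sorted LT-HSC their differences were 1.22 ± 0.09, 0.80 ± 0.12, 1.40 ± 0.14 and 1.67 ± 0.17 log2, and against sorted GMP 1.09 ± 0.07, 1.07 ± 0.10, 0.77 ± 0.12 and 1.5 ± 0.14 log2. So 6 of 10 genes were higher in LT-HSC-derived lines with dox, against 14.6% of all genes, and 6 in GMP-derived lines with dox, against 10% of all genes. None was lower, where 14.6% and 9.76% of all genes were. Phgdh, Shmt1, Mthfd1 and Mthfd1l did not pass in either. Phgdh passed against sorted LT-HSC without sorted replicate 2 (adjusted p 0.0453) or the dox array of B6-3 (0.0212, at 0.58 in place of 0.37 log2) or with the filter on dim genes (0.0445), and against sorted GMP without the dox array of B6-2 (0.0143). Shmt1 passed against sorted LT-HSC without sorted replicate 1 (0.0109) or with the filter on dim genes (0.0465), and against sorted GMP in a fit of only these groups (0.0412), and the 95% interval of Mthfd1 was -0.29 to 0.18 and -0.17 to 0.21 log2.

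Without dox, 8 of 10 genes were higher in LT-HSC-derived lines than in sorted LT-HSC, against 17.1% of all genes, and none was lower (18.1% of all genes). Asns was at 2.01 ± 0.10 and Mthfd2 at 2.43 ± 0.13 log2, and Psat1, Psph, Shmt2 and Aldh1l2 were called as with dox. The other two were Shmt1, at 0.42 ± 0.13 log2 (adjusted p 0.0126), and Mthfd1l, at 0.23 ± 0.07 (adjusted p 0.0155). With quantile normalization both calls were lost (adjusted p 0.0515 and 0.317), with Mthfd1l at 0.10 log2, and that of Mthfd1l was lost in a fit of only these groups (0.0867). The Shmt1 call was also lost without sorted replicate 3 (adjusted p 0.0564) or the B6-1 array (0.0512), and that of Mthfd1l without sorted replicate 1 (0.0514), the B6-3 array (0.114) or the B6-1 array (0.0746). In GMP-derived lines without dox, 5 were higher than in sorted GMP, against 10.8%, and 2 were lower, against 12.7%. Asns (2.53 ± 0.10), Mthfd2 (1.14 ± 0.13), Psph (0.60 ± 0.11), Psat1 (0.48 ± 0.08) and Aldh1l2 (0.47 ± 0.15 log2) rose, while Mthfd1 (-0.42 ± 0.10) and Mthfd1l (-0.35 ± 0.07 log2) fell. The Aldh1l2 call was lost without sorted replicate 3 (adjusted p 0.0606) or the array of B6-2 (0.0576), B6-3 (0.0564) or F6-6 (0.0757), and that of Mthfd1 without the B6-3 array, at -0.27 log2 (0.0532). Shmt2 did not differ detectably there, at -0.05 ± 0.13 log2 with a 95% interval of -0.31 to 0.21.

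**Figure D2:**
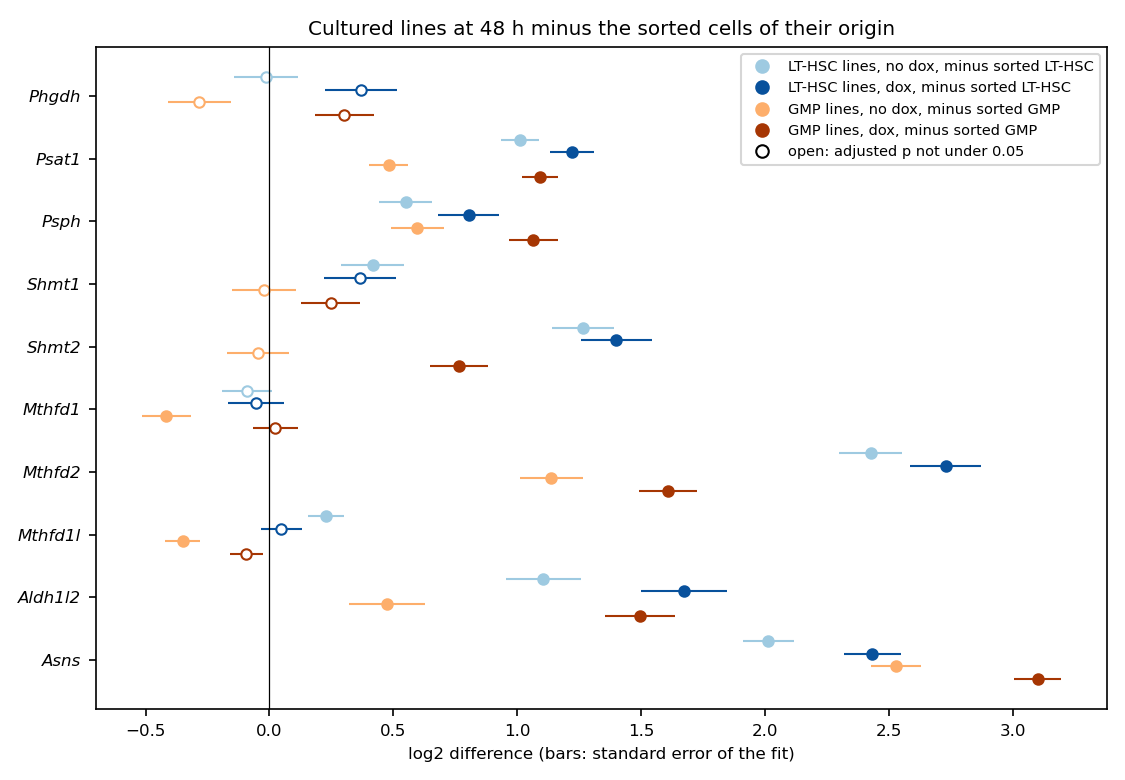
Difference in log2 signal (horizontal axis) between lines at 48 h and the sorted cells of their origin for the 10 genes (vertical axis), with the SE of the fit as bars and open points where the adjusted p is not under 0.05. Asns lies between 2.01 and 3.10 in all 4 comparisons, while Mthfd1 lies between -0.42 and 0.02.

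Comparisons with and without dox share the sorted arrays and so are not independent. Culture, immortalization and any fusion gene differ together between lines and sorted cells, and so does dox in the lines with it. These cannot be told apart. Against sorted LT-HSC, all 7 GMP and granule markers were higher and all 7 HSC markers lower in the lines at 48 h, with and without dox, and 14 of 19 proliferation genes were higher in both. The mean level of the granule markers was 9.56 to 9.80 in these lines and 6.01 to 6.39 in sorted LT-HSC. Against sorted GMP, 1 proliferation gene was higher and 7 were lower in the lines with dox, and likewise without. Maturation markers were higher as well: 5 of 5 maturing neutrophil markers and 3 of 3 macrophage markers without dox, against sorted cells of either origin. With dox these were 3 of 5 and 2 of 3 against sorted LT-HSC, and 2 of 5 and 0 of 3 against sorted GMP. The mean level of the neutrophil markers was 6.10 to 7.79 in sorted GMP and 5.97 to 7.24 in sorted LT-HSC. Against sorted GMP, 1 of 7 granule markers was higher and 2 lower with dox, and 1 and 1 without, and of 7 HSC markers 2 were higher and 2 lower with dox, and 0 and 1 without. The part of these shifts in the result was not tested.

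Of 12 ATF4-linked genes outside the 10, 8 were higher and 1 lower in LT-HSC-derived lines than in sorted LT-HSC, with dox and without. In GMP-derived lines 9 were higher with dox and 7 without, and 1 was lower in each. Chac1, a glutathione-degrading enzyme gene of the ATF4 response, was higher by 0.96 ± 0.18 and 0.85 ± 0.16 log2 in LT-HSC-derived lines, and by 1.14 ± 0.15 and 0.61 ± 0.16 in GMP-derived lines, the value with dox first in each pair. Atf4 itself was higher by 0.72 ± 0.09 log2 in LT-HSC-derived lines with dox than in sorted LT-HSC. Ppp1r15a, whose product ends the block of translation in this response, was lower in all 4 comparisons, from -2.19 ± 0.12 to -0.89 ± 0.11 log2.

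Other pathway genes were mixed. Of 30 measured, 10 were higher and 4 lower in LT-HSC-derived lines with dox than in sorted LT-HSC, and 9 and 5 without. In GMP-derived lines 8 were higher and 3 lower than in sorted GMP with dox, and 2 and 8 without. Glul was lower by -2.35 ± 0.10 log2 in LT-HSC-derived and by -0.93 ± 0.08 in GMP-derived lines with dox, opposite in sign to Asns, which uses the glutamine that Glul makes. Got1, the cytosolic aspartate aminotransferase, was higher by 1.05 ± 0.14 and 0.70 ± 0.12 log2. Sfxn1, a mitochondrial serine transporter, was higher by 0.73 ± 0.09 log2 in LT-HSC-derived lines with dox. Of 10 MYC genes, none was higher in any of the 4 comparisons and 3 to 9 were lower, the 9 in GMP-derived lines without dox, where the nucleolar Nop56 was at -0.80 ± 0.11 log2. This list holds Myc, Mycn and Max with Ncl, Nop56, Nop58, Fbl, Gnl3, Nolc1 and Odc1. Its counts do not measure MYC activity.

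The dox comparison asks what changes with the agent in lines of the same origin and time. Group means were compared without pairing by line, and line as a block was an alternative. B6-1 of GMP has no array without dox, and B6-1 of LT-HSC none with dox at 48 h. In GMP-derived lines at 48 h, 9 of the 10 genes were higher with dox, against 5.75% of all genes, and none was lower (5.18% of all genes). Aldh1l2 differed most, at 1.02 ± 0.15 log2 (2.03-fold, adjusted p 6.31e-05), then Shmt2 at 0.81 ± 0.13 (1.76-fold, adjusted p 9.65e-05). The serine synthesis genes Psat1, Phgdh and Psph were higher by 0.61 ± 0.08, 0.58 ± 0.13 and 0.47 ± 0.11 log2, and Asns by 0.57 ± 0.10 (adjusted p 1.21e-05, 0.00315, 0.00463 and 0.000465). Of these 9, the arrays with and without dox overlapped for none, and the share of all genes without overlap was not counted. Shmt1 was at 0.27 ± 0.13 log2 (adjusted p 0.231).

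Mthfd2 (0.47 ± 0.13), Mthfd1 (0.44 ± 0.10) and Mthfd1l (0.26 ± 0.07 log2) were called with adjusted p of 0.0156, 0.00404 and 0.0202. The Mthfd2 call was lost without the no-dox arrays of B6-2 (adjusted p 0.0547) or B6-3 (0.0833) or the dox array of B6-1 (0.0538). That of Mthfd1 was lost without the no-dox array of B6-3, at 0.29 log2 (adjusted p 0.0731). That of Mthfd1l was lost with line as a block (adjusted p 0.0573) and without the no-dox array of B6-2 (0.0635) or B6-3 (0.108) or the dox array of B6-3 (0.0595) or F6-6 (0.0646).

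In LT-HSC-derived lines at 72 h, 6 genes were higher with dox, against 3.43% of all genes, and none was lower (3.72% of all genes). Asns was higher by 0.75 ± 0.11 log2 (1.68-fold, adjusted p 0.00013), Aldh1l2 by 0.84 ± 0.16 (adjusted p 0.00195) and Psat1 by 0.46 ± 0.08 (adjusted p 0.00119). Psph (0.45 ± 0.12), Shmt2 (0.46 ± 0.13) and Mthfd2 (0.46 ± 0.14 log2) passed with adjusted p of 0.0179, 0.0378 and 0.0388. None of these 6 overlapped between its dox and no-dox arrays, and the share of all genes without overlap was not counted. Without the dox array of line B6-2 or that of B6-1, 3 of the 10 genes were called in place of 6.

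Psph, Shmt2 and Mthfd2 were the calls at 72 h that depended on single arrays. Psph was lost without the dox array of B6-2 (adjusted p 0.101) or B6-1 (0.052) or the no-dox array of B6-3 (0.105). Shmt2 was lost without the dox array of B6-2 (0.183) or B6-1 (0.0763) or the no-dox array of B6-2 (0.0516), B6-3 (0.14) or B6-1 (0.0572). Mthfd2 was lost without the dox array of B6-2 (0.122), B6-3 (0.107) or B6-1 (0.0605) or the no-dox array of B6-1 (0.201). Quantile normalization also ended these 3 calls (0.0536, 0.0657 and 0.0575), and a fit of only these arrays ended them and that of Aldh1l2 (0.0513), while Asns and Psat1 were called in every alternative.

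At 48 h none of the 10 genes passed in LT-HSC-derived lines, where limma called 0.441% of all genes. An unadjusted p under 0.05 was reached by 5 of the 10, and by 1456 of all 19937 genes. The members' median difference was 0.23 log2, beside 0.00 over all genes. Aldh1l2 was at 0.57 ± 0.18 log2 with a 95% interval of 0.19 to 0.94 (adjusted p 0.277), and Asns at 0.42 ± 0.12 with 0.17 to 0.67 (adjusted p 0.201). This comparison rests on 2 arrays with dox, and with line as a block 295 genes in place of 88 were called, again none of the 10.

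Averaged over the 3 comparisons, 8 genes were higher with dox, against 7.69% of all genes, and none was lower (7.49% of all genes). These comparisons share no arrays, but those of LT-HSC-derived lines at 48 h and 72 h draw on the same lines. Aldh1l2 was at 0.81 ± 0.10 log2 (adjusted p 1.88e-06), Asns at 0.58 ± 0.06 (7.52e-07), Shmt2 at 0.47 ± 0.08 (0.000151) and Psat1 at 0.43 ± 0.05 (1.40e-06). Mthfd2 was at 0.41 ± 0.08, Psph at 0.39 ± 0.07, Phgdh at 0.37 ± 0.08 and Mthfd1 at 0.26 ± 0.06 log2, and each of the 8 calls held in all 24 alternatives. Shmt1 (0.20 ± 0.08 log2, adjusted p 0.103, or 0.04 without the no-dox array of F6-6) and Mthfd1l (-0.03 ± 0.05, adjusted p 0.794) did not pass. The members' median was 0.40 log2, beside 0.00 over all genes.

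**Figure D3:**
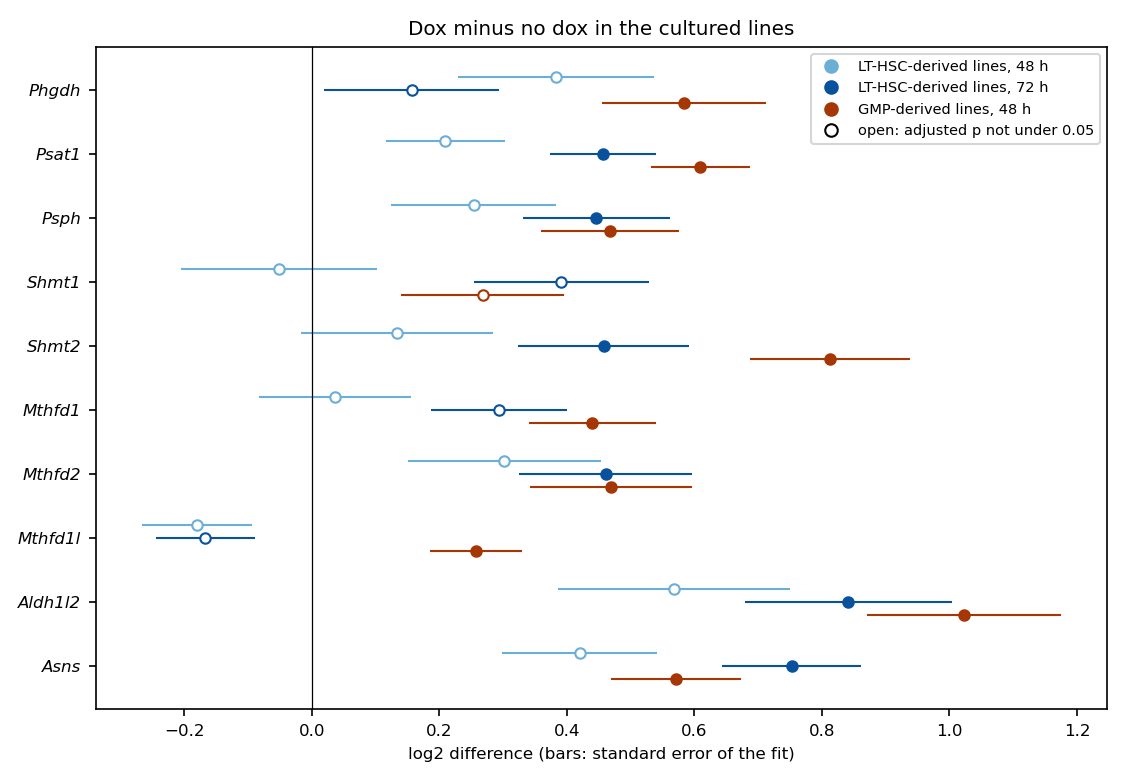
Difference in log2 signal between arrays with and without dox (horizontal axis) for the 10 genes (vertical axis) in 3 comparisons, with the SE of the fit as bars and open points where the adjusted p is not under 0.05. In GMP-derived lines 9 genes are called, and Mthfd1l lies below 0 in both comparisons of LT-HSC-derived lines and above 0 in GMP-derived lines.

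Set line by line, 8 pairs of arrays shared line, origin and hour. They come from 6 lines, since B6-2 and B6-3 from LT-HSC are counted at both hours. Phgdh, Psat1, Psph, Shmt2, Mthfd2, Aldh1l2 and Asns were higher with dox in 8 of 8 pairs. The share of all genes higher in 8 of 8 pairs was not counted. For Asns the pairs differed by 0.31 to 0.41 log2 in LT-HSC-derived lines at 48 h, by 0.68 to 0.84 at 72 h and by 0.41 to 0.68 in GMP-derived lines. Aldh1l2 varied most between GMP-derived lines, at 0.56 to 1.35 log2, the highest in B6-3 and the lowest in F6-6. Phgdh, which opens the pathway, varied widely as well: it differed by 0.81 log2 in B6-3 but by 0.06 in B6-2 of GMP-derived lines, and by 0.67 in B6-2 but by 0.08 in B6-3 of LT-HSC-derived lines at 48 h. Psat1, the next enzyme, was closer, at 0.54 to 0.64 in GMP-derived lines. Mthfd1 was higher in 7 and Shmt1 in 5 of the 8 pairs. Mthfd1l was lower with dox in all 5 pairs of LT-HSC-derived and higher in all 3 of GMP-derived lines.

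**Figure D4:**
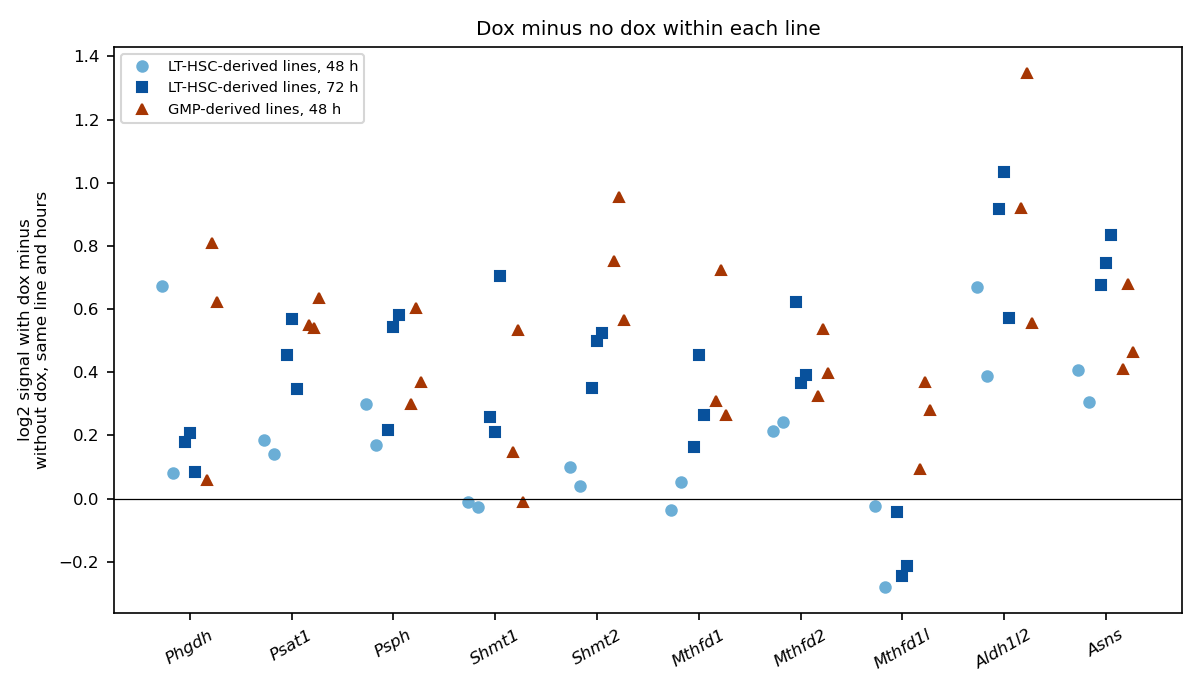
Difference in log2 signal with and without dox (vertical axis) between arrays of the same line and hour, for the 10 genes (horizontal axis). Points are pairs of arrays of 1 line (2 and 3 of LT-HSC at 48 h and 72 h, 3 of GMP, from 6 lines), and all 8 points lie above 0 for Phgdh, Psat1, Psph, Shmt2, Mthfd2, Aldh1l2 and Asns. The share of all genes with all 8 above 0 was not counted.

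Markers of maturing myeloid cells moved against dox. Of 5 maturing neutrophil markers, 4 were lower with dox in GMP-derived lines, 2 in LT-HSC-derived lines at 72 h and 1 at 48 h. Their mean level in GMP-derived lines was 10.9 to 11 without dox and 7.64 to 8.30 with dox, in LT-HSC-derived lines at 72 h 9.09 to 10.9 without and 8.23 to 9.10 with, and at 48 h 9.03 to 10.2 and 8.44 to 8.68. Of 3 macrophage markers, 3, 3 and 1 were lower in these comparisons. Ltf, the lactoferrin gene of secondary granules, was at 10.3 to 10.4 without dox and 5.26 to 5.73 with dox in GMP-derived lines. Some HSC markers were higher with dox, and none of the 7 was lower: 1 in GMP-derived lines, 2 in LT-HSC-derived lines at 48 h and 3 at 72 h. Meis1, a homeobox gene, was at 2.46 ± 0.17 log2 in GMP-derived lines and at 1.27 ± 0.20 and 1.61 ± 0.18 in LT-HSC-derived lines at 48 h and 72 h. Mecom was at 2.14 ± 0.27 and 2.64 ± 0.24 log2 in the latter, and Kit, a growth factor receptor gene, at 0.71 ± 0.17 at 72 h. Of 7 GMP and granule markers, Csf1r, the receptor gene of a macrophage growth factor, was lower at -0.88 ± 0.28 in GMP-derived lines and -1.36 ± 0.30 log2 in LT-HSC-derived lines at 72 h. Cebpe, a granulocyte transcription factor gene, was lower in GMP-derived lines, at -0.82 ± 0.12 log2. The part of these shifts in the result was not tested. Of 19 proliferation genes, 1 was higher in LT-HSC-derived lines at 72 h, Mcm6, a helicase subunit gene, at 0.35 ± 0.08 log2. In GMP-derived lines Mcm6 was higher at 0.26 ± 0.08 and Mki67, the gene of the Ki-67 antigen, lower at -0.33 ± 0.10 log2, and averaged over the comparisons 2 were higher (Mcm6 and Mcm2) and 2 lower (Mki67 and Bub1). B cell markers (2 measured) and T cell markers (3) lay below the array median in every group, as did both erythroid markers in 6 of the 8 groups.

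Other genes of the pathway were counted beside the 10, with no test between the lists. In GMP-derived lines 7 of 30 were higher with dox and none was lower, with a median of 0.12 log2. These were led by Srr, serine racemase, at 0.63 ± 0.13 log2, Gcsh, a part of the glycine cleavage system, at 0.52 ± 0.10, Asrgl1, an asparaginase, at 0.51 ± 0.10, and Gart, a purine synthesis enzyme that uses formyl folate, at 0.48 ± 0.09. In LT-HSC-derived lines at 72 h 2 were higher, Sfxn1 at 0.35 ± 0.09 and Asrgl1 at 0.35 ± 0.10 log2, and at 48 h none passed. Averaged over the comparisons 10 were higher and 2 lower, among them Slc19a1, the reduced folate carrier, at 0.32 ± 0.11, and Ggh, which trims folate tails, at -0.36 ± 0.11 log2.

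ATF4-linked genes outside the 10 were counted in the same way. In GMP-derived lines 2 of 12 were higher with dox, against 5.75% of all genes, Chac1 at 0.53 ± 0.16 and Ddit3 at 0.28 ± 0.08 log2. None passed in LT-HSC-derived lines at either time. There 3.43% of all genes were called higher at 72 h, and 0.441% in either direction at 48 h. The list's median difference was 0.20 log2 in GMP-derived lines, and 0.12 and -0.04 in LT-HSC-derived lines at 72 h and 48 h. Averaged over the comparisons 3 were higher, against 7.69% of all genes, and 1 lower, against 7.49%. Atf4 was at 0.14 ± 0.05 log2 in that average, with an adjusted p of 0.0489. Of 10 genes of the MYC list, 7 were higher with dox in GMP-derived lines, against 5.75% of all genes. In LT-HSC-derived lines 1 was higher at 72 h, against 3.43%, and none at 48 h. In GMP-derived lines the nucleolar genes Nop56 and Gnl3 were at 0.73 ± 0.11 and 0.66 ± 0.10 log2.

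The lines of both origins were also compared directly at 48 h. With dox, Psat1 was lower in LT-HSC-derived than in GMP-derived lines by -0.34 ± 0.09 log2 (adjusted p 0.0467), the only call among the 10, against 0.943% of all genes called lower and 1.17% called higher, and it was lost in 7 of 11 alternatives. Leaving out the LT-HSC-derived array of B6-2 or B6-3 gave an adjusted p of 0.135 and 0.554, and leaving out the GMP-derived array of B6-2, F6-6 or B6-1 gave 0.0749, 0.119 and 0.132. Mthfd1l was called when the GMP-derived B6-2 array was left out (adjusted p 0.0199) and with the filter on dim genes (0.0466). Without dox, Aldh1l2 was higher in LT-HSC-derived lines by 0.78 ± 0.16 log2 (adjusted p 0.00357), against 3.52% of all genes called higher and 3.28% called lower, and this held in all 11 alternatives. The Asns interval was -0.39 to 0.08 log2 with dox and -0.23 to 0.22 without. Lines B6-1, B6-2 and B6-3 carry the same names in both origins, and a shared animal behind them was neither stated nor denied by the labels.

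Whether the dox difference itself depends on the origin was tested at 48 h. None of the 10 genes passed, where limma called 0.231% of all genes. An unadjusted p under 0.05 was reached by 4 of the 10, and by 1742 of all 19937 genes. Each of the 10 estimates was larger in GMP-derived than in LT-HSC-derived lines, with a median of 0.36 log2 beside 0.01 over all genes. The share of all genes with an estimate in this direction was not counted. The estimates of the 10 lay between 0.15 ± 0.16 log2 for Asns and 0.68 ± 0.20 for Shmt2 (adjusted p 0.189). Mthfd1l had the lowest adjusted p, 0.136, at 0.44 ± 0.11 log2 with a 95% interval of 0.20 to 0.67. Without the no-dox array of B6-2 from LT-HSC it passed, at 0.52 ± 0.11 log2 and adjusted p 0.0426. With line as a block 98 genes in place of 46 were called, and none of the 10.

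Time was compared within LT-HSC-derived lines. Without dox, 9 of 10 genes were lower at 72 h than at 48 h, with a median of -0.26 log2 beside 0.03 over all genes. The share of all genes with a lower estimate was not counted. None of the 10 passed, where 0.181% of all genes were called. An unadjusted p under 0.05 was reached by 4 of the 10, and by 2588 of all 19937 genes. Shmt2 was at -0.35 ± 0.13 (adjusted p 0.27), Psat1 at -0.31 ± 0.08 (adjusted p 0.133) and Asns at -0.30 ± 0.11 log2 (adjusted p 0.242). The arrays of both times did not overlap for these 3, for Shmt1 or for Mthfd1 (-0.31 ± 0.11 log2). The share of all genes without overlap was not counted. With line as a block 230 genes in place of 36 were called, and none of the 10. With dox, the differences lay between -0.06 log2 for Mthfd2 and 0.17 for Shmt1, and limma called 0% of all genes. None of the 10 had an unadjusted p under 0.05, beside 450 of all 19937 genes. The dox difference did not change detectably from 48 h to 72 h either, where limma called 0% of all genes. An unadjusted p under 0.05 was reached by 1 of the 10, Shmt1 at 0.44 ± 0.21 log2 (adjusted p 0.858), and by 1132 of all 19937 genes.

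Across the 8 group means, the courses of the 10 genes were compared, as a description over points that share arrays and culture. Pearson correlations of the 45 pairs ran from -0.29 to 0.97 with a median of 0.52, and 6 pairs were over 0.9. The highest was that of Psat1 and Psph, consecutive enzymes of serine synthesis, at 0.968. Phgdh, Mthfd1, Mthfd1l and Aldh1l2 reached 0.9 with no other member. The median correlation with the other members was 0.03 for Mthfd1, 0.06 for Mthfd1l and 0.43 for Phgdh, and 0.67 to 0.88 for the remaining genes. Among 2438 to 2439 genes whose group means spanned at least 1 log2, the course most like that of Mthfd2 was Mcts1, a translation reinitiation factor gene, at 0.996. Tars, threonyl-tRNA synthetase, had rank 3 for both Mthfd2 (0.99) and Psat1 (0.977), with Tex2 (0.99) and Ptgr2 (0.98) at rank 2. Sars, seryl-tRNA synthetase, had rank 3 for Aldh1l2 (0.958), after Snora69 (0.968) and P2rx3 (0.965). Slc1a5, a glutamine and serine carrier, had rank 3 for Shmt1 (0.929), after Prrg1 (0.96) and Bora (0.957). Asns was most like Spats2 (0.989), Psat1 and Psph most like Cmtr2 (0.989 and 0.982) and Shmt2 most like Trmt5 (0.991).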

How the data were processed

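The measurements are 26 arrays of 1-colour Affymetrix type, in 8 groups. Per the labels' protocols, total RNA was amplified, and a sense-strand DNA target was fragmented and labelled. The values used are log2 probe set signals as deposited by the authors in a table of 34760 probe sets. The authors' tools were limma under R 3.1.1, per the submitters' processing notes, with the background correction, the summarisation of probes and the array normalization not given in the sources used here. That the scale is log2 was read from the values, which ran from 1.75 to 13.1. The number of arrays limits the precision, and dim probe sets stayed in.

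GEO's platform annotation gave 1 symbol to 21640 probe sets, several to 1321 and none to 11799. Each of 19937 genes was taken from its highest-mean probe set with 1 symbol. The model, 1 mean per group over the 26 arrays, used lmFit, contrasts.fit and eBayes of limma 3.58.1 (R 4.3.3), with 12 comparisons of group pairs, an average of 3 of them and 2 interactions. A gene was called where its 2-sided p, adjusted over the 19937 genes by Benjamini-Hochberg, was under 0.05. Differences are log2 values ± SE. The code was tested on simulated data.

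Lines pair the cultured arrays by their labels. Arrays of the same line deviated together from their group means in GMP-derived lines (r from 0.29 to 0.40 over 3 pairs) and mostly in LT-HSC-derived lines (-0.06 to 0.47 over 15 pairs, 12 of them over 0.1), while different lines had medians of -0.09 and -0.13. Alternatives were line as a fixed or random block, quantile normalization, a filter on dim genes (above the array median on at least 2 arrays, which kept 11945 genes and all 10 members), the mean of a gene's probe sets, a fit of only the groups compared, and leaving out each array.

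The members and all lists were chosen with earlier results of these data known. The lists were other pathway genes (30 of 36 measured), ATF4 genes (12), MYC genes (10), proliferation genes (19 of 20) and markers of HSC, GMP and granules, maturing neutrophils, macrophages, erythroid cells, megakaryocytes, B cells, T cells and stroma with endothelium. Named from the lists were up to 4 called genes of largest difference in a comparison, and for likeness the 3 genes with the highest correlation to a member over group means. Marker levels are means over a list's log2 signals. Promoter sequences and gene names came from RefSeq tables of GRCm38.p6, and no build was named for the array's annotation.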

Additional observations from a re-analysis of the deposited data

Results flagged for a closer look

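Shmt1 in GMP-derived lines with dox had 1 array apart from the others: line B6-1 was at 7.79 log2, while the other 3 lay between 7.61 and 7.62. Of the 30 sets of 4 arrays examined in this way (10 genes in 3 groups), it was the only one with such a gap, and chance marks about 1 in 20. Without this array Shmt1 still did not pass between dox and no dox in these lines.

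Mthfd1l was lower with dox in every pair of arrays of an LT-HSC-derived line and higher in every pair of a GMP-derived line. At 48 h the mean difference between arrays of the same line was -0.15 log2 over 2 LT-HSC-derived lines (-0.28 to -0.02) and 0.25 over 3 GMP-derived lines (0.09 to 0.37). The test of this difference gave 0.44 ± 0.11 log2 with an adjusted p of 0.136 and did not pass. At 72 h the LT-HSC-derived lines were at -0.17 (-0.25 to -0.04, 3 lines), against the same 0.25 of GMP-derived lines at 48 h. The difference between these hours and origins together was not tested.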

How the results depend on the processing

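Over 6 other settings, 819 of 840 values of single genes kept their side of the threshold, 16 lost a call and 5 gained one, and none that was called reversed. When each array was left out in turn, 1132 of 1180 kept their side, 41 lost a call and 7 gained one, again with no reversal of a call. In both kinds together 37 values that were not called changed sign. The main counts that moved by over 1.5 times were 3. In LT-HSC-derived lines at 72 h, 6 genes called became 3 with quantile normalization, 2 when only these groups were fitted and 3 to 5 without 1 array. Between origins with dox, 1 became 0 with quantile normalization or a fit of these groups only, 2 with the dim filter and 0 to 1 without 1 array. Between origins without dox, 1 became 2 with the dim filter. The cause was not tested, beyond the smaller number of arrays in the restricted fits.

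Without 1 array the counts were 5 to 6 for sorted cells, 6 to 9 for dox in GMP-derived lines, 8 to 9 for the averaged dox difference, 6 to 7 and 6 to 8 for LT-HSC-derived lines with and without dox against sorted cells, 6 to 7 and 5 to 7 for GMP-derived lines, 0 to 1 for the origin interaction, 1 between origins without dox, and 0 for dox at 48 h in LT-HSC-derived lines, both time comparisons and the time interaction. With the replicate block, the counts were 6 at 72 h, 8 in GMP-derived lines, 8 for the average and 0 at 48 h and for the time and interaction contrasts, and only the Mthfd1l call changed (adjusted p 0.0573). For sorted cells the numbers do not pair the samples (r from 0.02 to 0.06 over 4 pairs), and the block left the count at 6. Line could not be a fixed block between origins or against sorted cells, and was a random one there, with a correlation of 0.073.

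Counts over all genes moved more. For dox at 48 h in LT-HSC-derived lines, 88 calls became 295 with the block, 54 in the restricted fit and 10 to 87 without 1 array. At 72 h 1425 became 647 in the restricted fit and 859 at least without 1 array, and in GMP-derived lines 2179 became 1224 at least. Between origins 421 with dox became 110 at least without 1 array, and 1355 without dox became 595 in the restricted fit. For time without dox 36 became 230 and 62 with the fixed and the random block, and 0 in the restricted fit. For the origin interaction 46 became 98 with the block, 21 in the restricted fit and 8 at least without 1 array. Signals near or below the array median, as of Aldh1l2 in sorted cells, limit how far sizes can be read.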

Other observations

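Another probe set is annotated to both Phgdh and the predicted gene Gm6756 and was left out of all tests. Its mean was 6.51 ± 0.11 (SD, n = 3) in GMP-derived lines without dox and 6.89 ± 0.21 (SD, n = 4) with dox. In sorted LT-HSC it was at 6.46 ± 0.24 (SD, n = 4) and in sorted GMP at 6.83 ± 0.15 (SD, n = 4).

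All 3 megakaryocyte markers (Pf4, Itga2b and Gp9) were lower in sorted GMP than in sorted LT-HSC, and in LT-HSC-derived lines at 48 h with and without dox. Their mean level was 8.04 to 8.40 in sorted LT-HSC and 5.67 to 6.33 in sorted GMP. Pf4, a platelet chemokine gene, was also lower with dox in LT-HSC-derived lines at 72 h, at -1.75 ± 0.48 log2 (limma, adjusted p 0.0272). The 3 stroma and endothelium markers had mean levels of 5.48 to 5.90 over all arrays, with 2 of the 3 under the array median in every group. Of these, Col1a1, a collagen gene, was lower in no-dox LT-HSC-derived lines at 48 h than in sorted LT-HSC, at -0.33 ± 0.09 log2 (limma, adjusted p 0.00367).

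Atf4 was at 8.76 to 9.0 in sorted LT-HSC and at 8.96 to 9.18 in sorted GMP. In LT-HSC-derived lines it was at 9.44 to 9.60 without and 9.49 to 9.73 with dox at 48 h, and at 9.25 to 9.46 and 9.48 to 9.59 at 72 h. In GMP-derived lines it was at 9.49 to 9.55 without and 9.63 to 9.81 with dox. The share of all genes without overlap between such groups was not counted. Myc was at 9.50 to 10.1 in GMP-derived lines without dox and at 10.1 to 10.5 with dox, and these overlapped.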
